A study of Mus musculus with 10 samples.

Results

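Mouse embryonic fibroblasts carrying a conditional Dicer knockout (CDKO) were compared with wild-type (WT) fibroblasts after 4 days in 5 µM 4-hydroxytamoxifen (OHT), with 2 Affymetrix arrays for each line. These 4 arrays belong to a set of 10, in which CDKO cells at 1 µM OHT, untreated CDKO cells and untreated WT cells had 2 arrays each. All cells were fibroblasts grown in DMEM with 10% serum, so the drug and the medium were the same on both sides and the lines differed. Of 45037 probe sets other than controls, the 19639 with a mean log2 level of 4 or more in treated CDKO or treated WT cells were kept. The quantity followed throughout is the treated CDKO mean minus the treated WT mean on the log2 scale, so that 1 unit is a doubling, and a mean under 4 was taken as background.

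The labels limit what this comparison can be about. They name no recombinase, promoter, mouse strain or embryo. Nothing in them tells if both arrays of a group hold RNA of different cultures, and p-values then measure only the spread between these arrays, which may be technical. The description field calls every sample a conditional knockout, whereas the titles name 4 of the 10 as WT, and the titles were followed. The labels describe no second line of either genotype. Loss of Dicer and any other difference between these lines therefore cannot be told apart.

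Dicer is the ribonuclease that cuts hairpin precursors into mature microRNAs, which Argonaute and TNRC6 proteins then use to repress mRNAs that pair with the microRNA seed. OHT is the active form of tamoxifen, a ligand of the estrogen receptor, and is widely used to activate fusions of Cre recombinase with the receptor's ligand-binding domain, which then cut out DNA between loxP sites. In fibroblasts, let-7, miR-21 and miR-29 are among the common microRNAs, and Dicer loss is known to slow their proliferation. The sequences of 4 such microRNAs are shown because their targets were among the gene lists examined. They are from RefSeq (GRCm38.p6), written 5′ to 3′ with the seed, bases 2 to 8, in capitals. let-7a-5p (chr13:48538239-48538260, minus strand) and let-7g-5p (chr9:106178846-106178867, plus strand) share a seed, while miR-21a-5p (chr11:86584120-86584141, minus strand) and miR-29a-3p (chr6:31062673-31062694, minus strand) have others. The arrays gave no value for these mature microRNAs.
mmu-let-7a-5p: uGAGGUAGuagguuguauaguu
mmu-let-7g-5p: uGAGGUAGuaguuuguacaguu
mmu-miR-21a-5p: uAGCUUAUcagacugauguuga
mmu-miR-29a-3p: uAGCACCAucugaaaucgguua

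The treated CDKO arrays lay further apart than the treated WT arrays. The median SD between replicates was 0.30 in treated CDKO and 0.07 in treated WT cells (log2, n = 2 arrays each). The hybridisation spike-in controls read 10.37 and 9.30 on CDKO arrays 1 and 2, against 10.61 and 10.94 on the WT arrays, so CDKO array 2 stood in a lower class that also held 3 other CDKO arrays. The 18S ribosomal RNA control was even over the 4 treated arrays, at 5.51 and 5.83 in CDKO and 6.16 and 5.98 in WT cells, but stood at 11.6 and 11.2 in untreated WT cells, against 6.87 and 8.44 in untreated CDKO cells. The Gapdh 3′ minus 5′ control difference, a sign of RNA quality, lay between -0.31 and -0.10 on the treated arrays, but was 0.07 and -0.11 in untreated CDKO and 0.89 and 0.67 in untreated WT cells. The untreated lines thus differ in 2 controls that are close between the treated lines, and the part of these controls in the untreated and response values was not tested. CDKO cells at 1 µM, which count only toward the spread of the model, read 5.21 and 10.16 for 18S and -0.10 and 1.58 for Gapdh. All 14 fibroblast markers reached a mean of 4 in at least 1 treated line. The intermediate filament gene Vim read 15.46 and 15.21 in CDKO and 15.54 and 15.53 in WT cells. Reaching this level is not a check of cell identity, since 17 of 19 macrophage and leukocyte markers reached it as well. None of the 14 fibroblast markers passed the test between the lines. Their median over the list was 0.82 below WT on CDKO array 1 and 0.38 above WT on CDKO array 2, and the markers Col1a1 (11.79 and 15.11 in CDKO, 14.17 and 14.14 in WT) and Dcn (7.32 and 10.56 in CDKO, 9.93 and 9.99 in WT) shared that split.

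Dicer1 itself (chromosome 12) was measured by 2 probe sets, and neither passed the test. The brighter read 5.83 and 5.78 in treated CDKO and 7.64 and 7.19 in treated WT cells, a difference of -1.61 ± 0.83 (SE; limma, adjusted p = 0.41). Both CDKO arrays lay below both WT arrays. The SE is shared over all 5 groups. On this probe set the SD was 0.03 in treated CDKO and 0.32 in treated WT cells, but 2.05 in CDKO cells at 1 µM (5.40 and 8.30). The dimmer read 5.90 and 5.49 in CDKO and 5.90 and 5.94 in WT cells, a difference of -0.23 ± 0.26 (adjusted p = 0.75). The labels do not place either probe set relative to the exons that the knockout removes, so these values check neither the deletion nor the labels. Between the untreated lines the probe sets differed by -2.50 ± 0.83 and -1.11 ± 0.26, without passing (adjusted p = 0.134 and 0.0598).

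At 5 µM, 391 of the 19639 probe sets (1.99%) differed between the lines at an adjusted p under 0.05, 209 higher and 182 lower in CDKO cells, and 3191 had an unadjusted p under 0.05. With each gene represented by the probe set of the highest mean, 163 of 10328 genes passed (1.58%), of which 99 were higher (0.959%) and 64 lower (0.62%). In all 163 the CDKO arrays did not overlap the WT arrays, which was also so for 54.9% of all tested genes. The median difference over all genes was 0.05, and 54.6% of genes had a positive difference. Among the called genes 72 had a mean of 6 or more in both lines. In contrast, 22 of the 99 higher genes had a WT mean under 4 and 24 of the 64 lower genes a CDKO mean under 4, so that their differences were measured against background and are not ratios of transcript amounts. The number of calls depended on single arrays: it was 29 without WT 5 µM array 1, 30 without WT 5 µM array 2, 207 without CDKO 5 µM array 1, 129 without either untreated WT array and 640 without either 1 µM array. With the spread taken from the 4 compared arrays alone, 2 probe sets passed.

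The genes furthest above WT belonged to several functions. Esr1 (chromosome 10), which encodes estrogen receptor alpha, the receptor for OHT, read 9.40 and 9.90 in treated CDKO and 4.54 and 3.05 in treated WT cells. The difference was 5.85 ± 0.71 (SE, adjusted p = 0.0117). It was seen on the 1 of 3 Esr1 probe sets that reached 4 in either line, and the other probe sets read at most 3.87 in all 4 treated arrays. The labels do not say which part of the transcript it covers. Zfp991 (chromosome 4), a zinc finger gene, read 9.01 and 8.91 in CDKO and 3.29 and 5.06 in WT cells, a difference of 4.78 ± 0.52 (adjusted p = 0.0087). The other tested probe set of Zfp991 differed by -0.45. The pseudogene Znf41-ps on the same chromosome was higher by 3.21 ± 0.26 (adjusted p = 0.0029).

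Regulators of growth and adhesion were also among them. Cdkn2a (chromosome 4), which encodes the cell cycle inhibitors p16INK4A and p19ARF, read 10.73 and 9.38 in CDKO and 6.74 and 6.87 in WT cells, a difference of 3.25 ± 0.48 (adjusted p = 0.0231). Itgb3, the beta subunit of the vitronectin receptor, read 6.47 and 7.69 in CDKO and 3.24 and 2.46 in WT cells, with a difference of 4.23 ± 0.73 (adjusted p = 0.0368). As in every called gene, the CDKO arrays did not overlap the WT arrays. Both calls were lost in fits that left out an array, that of Itgb3 in most of them. Lcor, a corepressor that binds ligand-bound nuclear receptors, read 9.12 and 8.91 in CDKO and 5.41 and 5.34 in WT cells, a difference of 3.64 ± 0.41 (adjusted p = 0.0099). Max, the dimerisation partner of MYC, averaged 8.92 ± 1.30 in treated CDKO and 4.78 ± 0.57 in treated WT cells (SD; difference 4.14 ± 0.77, adjusted p = 0.0456), and Dsp, a desmosome protein gene, read 8.69 and 6.70 in CDKO and 4.64 and 3.94 in WT cells (3.41 ± 0.64, adjusted p = 0.0481). Their CDKO arrays lay far apart, and each call held in 1 of the 10 fits that left out an array. Clone names aside, the remaining genes of the 12 furthest above WT were Serpinb1b, Serpinb9g, Slc22a23 and Serpina3n, with differences between 3.24 and 3.74.

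**Figure D1:**
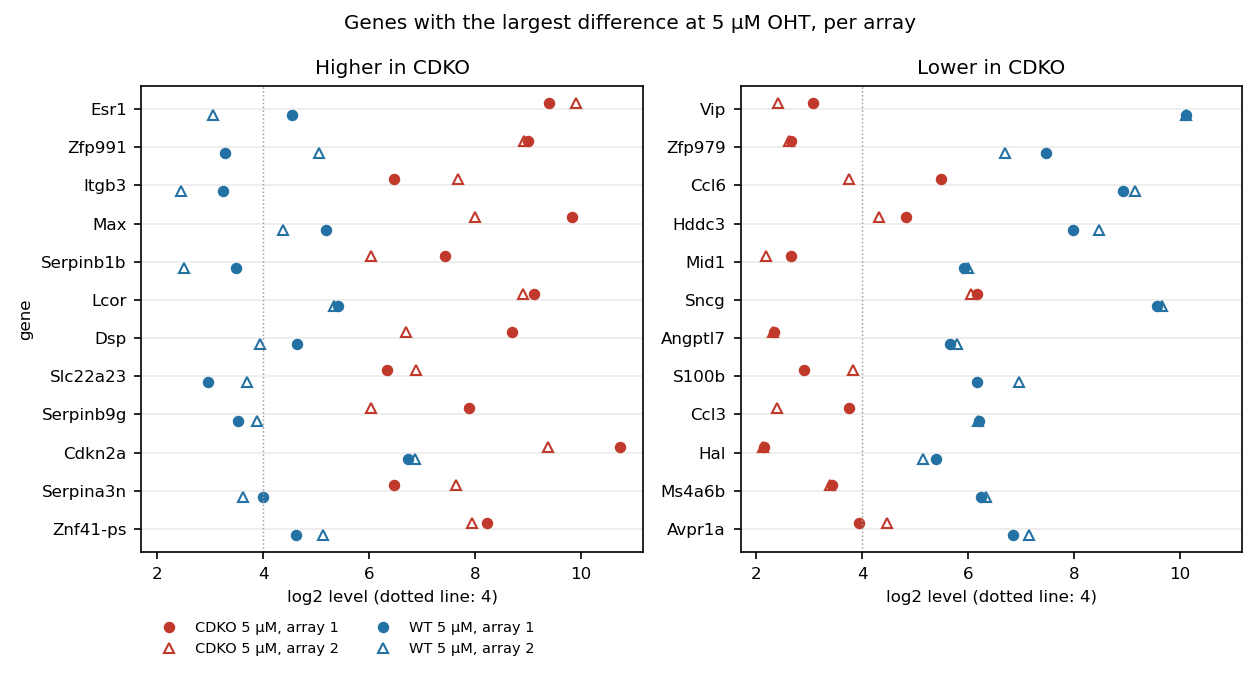
Log2 level of the 12 genes furthest above WT (left) and the 12 furthest below WT (right), clone names aside, on each treated array. Red is CDKO and blue WT, with filled circles for array 1 and open triangles for array 2. No red symbol overlaps the blue ones of its gene; Esr1 reads above 9 on both CDKO arrays and under 5 on both WT arrays, and Vip reads under 4 on both CDKO arrays and above 10 on both WT arrays.

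Among called genes with both means at 6 or above, clone names aside, where neither side rests on background, Abcc4 had the second largest positive difference after Cdkn2a and is described with the NRF2 genes. Dcbld2, a neuropilin-like membrane protein gene, read 12.57 and 12.88 in CDKO and 10.47 and 9.99 in WT cells (difference 2.49 ± 0.46, adjusted p = 0.046). Procr, the endothelial protein C receptor, read 12.10 and 11.80 in CDKO and 9.64 and 9.79 in WT cells (difference 2.23 ± 0.35, adjusted p = 0.0275). Rpgrip1 was higher by 2.27 ± 0.40, Tmcc1 by 2.18 ± 0.24 and Pik3r1, the regulatory subunit of phosphoinositide 3-kinase, by 2.16 ± 0.27. The other probe sets of Pik3r1 did not all share its direction.

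The gene furthest below WT was Vip (chromosome 10), which encodes vasoactive intestinal peptide, a neuropeptide. It read 3.07 and 2.41 in treated CDKO and 10.10 and 10.11 in treated WT cells, a difference of -7.37 ± 0.27 (SE, adjusted p = 6.26e-05). Zfp979 (chromosome 4) read 2.66 and 2.63 in CDKO and 7.47 and 6.70 in WT cells (difference -4.44 ± 0.33, adjusted p = 0.0023), and Mid1 (chromosome X), a ubiquitin ligase that binds microtubules, read 2.67 and 2.19 in CDKO and 5.93 and 6.00 in WT cells (difference -3.53 ± 0.32, adjusted p = 0.0049). All 3 genes were under 4 on both CDKO arrays and above 5 on both WT arrays. Sncg, gamma-synuclein, was measured above background in both lines, at 6.17 and 6.05 in CDKO and 9.57 and 9.66 in WT cells (difference -3.50 ± 0.32, adjusted p = 0.0047). Angptl7, an angiopoietin-like secreted protein gene, read 2.34 and 2.32 in CDKO and 5.65 and 5.78 in WT cells (difference -3.39 ± 0.24), and Hal, histidine ammonia-lyase, read 2.15 and 2.14 in CDKO and 5.39 and 5.15 in WT cells (difference -3.12 ± 0.18). Clone names aside, the other genes of the 12 furthest below WT were Ccl6, Ccl3, Hddc3, S100b, Ms4a6b and Avpr1a, between -4.41 and -2.79.

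With both means at 6 or above, Eno2, the neuronal enolase, read 6.97 and 8.15 in CDKO and 10.08 and 10.07 in WT cells (difference -2.52 ± 0.38, adjusted p = 0.0256). Mmp3, stromelysin, which digests extracellular matrix, read 7.71 and 7.29 in CDKO and 9.94 and 9.98 in WT cells (difference -2.46 ± 0.24, adjusted p = 0.0065). It was the only called member of 18 tested matrix metalloproteinases and inhibitors, against 0.62% of all genes called lower. The median of this list was -0.14. C1qtnf12 (-2.17), Cdc42ep2 (-1.97), L3hypdh (-1.92) and the brain fatty acid binding protein gene Fabp7 (-1.88) were lower by smaller amounts.

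The untreated CDKO and WT arrays, which share no array with the comparison on the drug, gave 796 called probe sets (4.05%) and 312 called genes (3.02%), with 156 higher and 156 lower in CDKO cells (1.51% each). The filter, set on the treated groups, bears on this split: of the 796 probe sets 347 were higher and 449 lower, whereas a filter on the means of any of the 5 groups gave 1360, 475 higher and 885 lower. Without untreated WT array 1 or 2 the 796 became 35 and 32. Of the 163 genes called at 5 µM, 44 (27.0%) were also called without the drug, 23 higher and 21 lower, all in the same direction, and these were 14.1% of the 312. Both comparisons came from 1 fit over all 5 groups, so each gene had the same SE in both. A gene with a small SE is thus favoured in both, and the shared calls are not independent. In 139 of the 163 (85.3%) the untreated difference had the same sign, against 61.0% of all genes. Over all genes the differences correlated at r = 0.43, a description across genes that share arrays and probe chemistry within each comparison. The 99 higher genes had a median of 1.79 on the drug and 0.55 without it, and the 64 lower genes medians of -1.77 and -0.84.

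Several of the leading genes thus parted the lines with and without OHT. Esr1 differed by 5.39 ± 0.71 between the untreated lines (adjusted p = 0.0122), where it averaged 9.00 ± 0.48 in CDKO and 3.60 ± 1.37 in WT cells (SD, n = 2 each). Cdkn2a differed by 5.09 ± 0.48 untreated (8.71 ± 0.52 in CDKO, 3.62 ± 0.24 in WT), more than the 3.25 on the drug, although the difference between these 2 values did not pass the test (-1.84, adjusted p = 0.389). Zfp991 differed by 4.93, Znf41-ps by 3.15 and Serpina3n, a serine protease inhibitor of the acute phase, by 3.22. On the lower side, Vip differed by -4.87 ± 0.27, Mid1 by -4.54 ± 0.32, Hddc3 by -3.93 ± 0.51, Ccl6 by -3.28 ± 0.56 and Zfp979 by -3.02 ± 0.33, each also called. Styk1 (2.70 on the drug, 3.75 untreated), the pantetheinase gene Vnn1 (2.86 and 2.70) and the membrane glycoprotein gene Cd200 (3.03 and 2.17) were further genes higher in both comparisons, and the interleukin 1 receptor gene Il1r1 (-1.64 and -1.78) was lower in both. These last 4 were chosen after their values were seen.

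Other leading genes did not pass the test between the untreated lines. Above background, Abcc4 averaged 7.12 in untreated CDKO and 7.12 in untreated WT cells, Lcor 8.61 in untreated CDKO and 8.41 in untreated WT cells, and Itgb3 5.51 in untreated CDKO and 5.31 in untreated WT cells. Slc7a11, Serpinb1b, Angptl7 and Hal averaged under 4 in both untreated lines, where GCRMA compresses values, so their transcript levels there cannot be compared. For Abcc4, Slc7a11 and Serpinb1b the treated CDKO level was the one that stood apart from the other groups. For Lcor and Itgb3 the treated WT level was the low one (5.37 and 2.85 on average), and for Angptl7 and Hal the treated WT level was the high one (5.72 and 5.27). Whether the line difference on the drug was unlike that without it, in either direction, was tested for every probe set, and 7 of 19639 passed (0.0356%), with 2236 at an unadjusted p under 0.05. With a filter on the means of any of the 5 groups, 72 probe sets passed, 59 with a positive and 13 with a negative value, and with no filter 194 did. Without either untreated WT array none passed in limma (1225 and 1176 at an unadjusted p under 0.05). In 2 of the 7 the difference was the smaller one on the drug: 0.13 against 3.83 untreated for a probe set of Pdgfd, and -0.61 against -3.46 untreated for one with no single gene symbol. By representative probe sets this was 1 gene of 10328 (0.00968%), Hal (-2.98, adjusted p = 0.0464). The 7 also held probe sets of Slc7a11 (3.37) and Map7d2 (3.60), while Abcc4 (3.19, adjusted p = 0.0519), Angptl7 (-3.10, adjusted p = 0.0513), Lcor (3.43, adjusted p = 0.196) and Itgb3 (4.03, adjusted p = 0.288) missed the threshold.

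**Figure D2:**
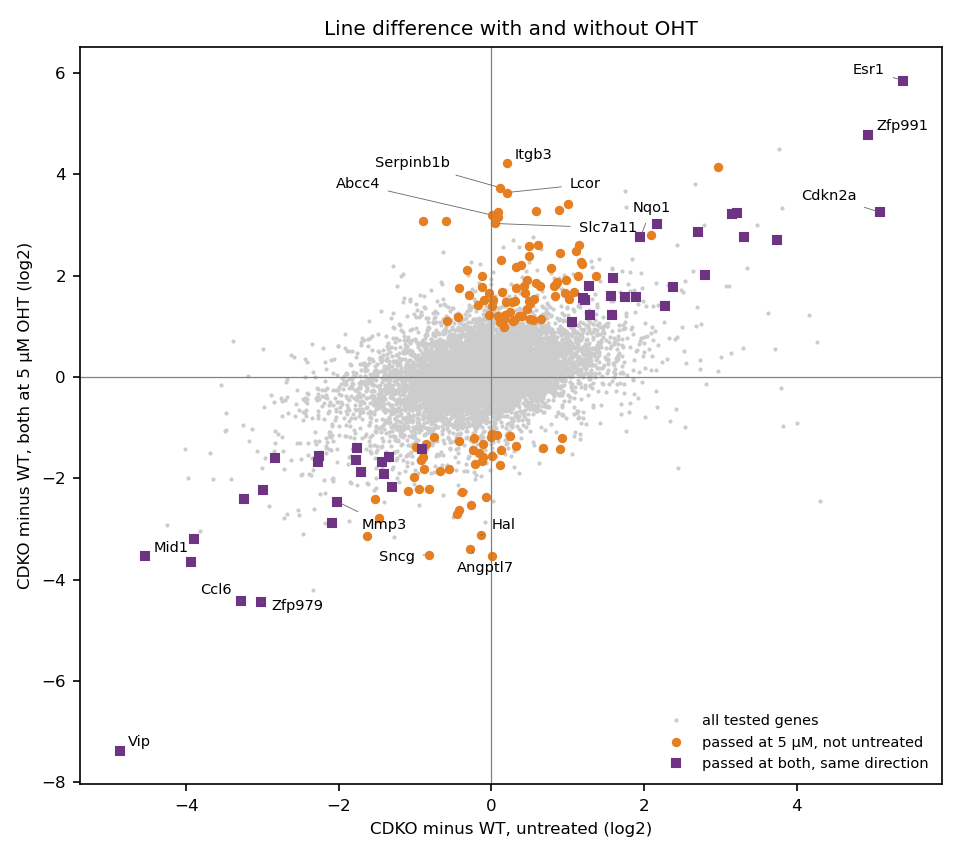
Difference between CDKO and WT cells at 5 µM OHT (vertical axis) against that between the untreated lines (horizontal axis), log2, for the 10328 tested genes in grey; squares are the 44 genes called in both comparisons in the same direction and circles the other genes called at 5 µM. Esr1, Zfp991 and Cdkn2a lie far to the upper right and Vip to the lower left, while Abcc4, Slc7a11, Lcor, Hal and Angptl7 lie near 0 on the horizontal axis.

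NRF2 is a transcription factor that is held back by KEAP1 and released by electrophiles and oxidants, after which it drives genes of glutathione synthesis, quinone reduction and export at antioxidant response elements. Of 26 listed target genes, 22 were on the array with a single symbol and 20 were tested. Of these 20, 3 passed, all higher in CDKO cells, against 0.959% of all genes. A positive difference was seen in 19 of 20, and in 17 both CDKO arrays lay above both WT arrays, against 54.6% and 31.2% of all genes. The list median was 0.98, against 0.05 over all genes, with 0.86 on CDKO array 1 and 1.01 on CDKO array 2. In the untreated lines it was 0.05.

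The members called on the probe set that stood for the gene belong to transport and quinone reduction. Abcc4 (chromosome 14), an exporter of organic anions, read 9.73 and 9.83 in treated CDKO and 6.61 and 6.56 in treated WT cells, a difference of 3.20 ± 0.25 (SE, adjusted p = 0.0027). Slc7a11 (chromosome 3), the cystine importer that feeds glutathione synthesis, read 5.78 and 5.87 in CDKO and 2.80 and 2.79 in WT cells (difference 3.03 ± 0.22, adjusted p = 0.0022). Its other probe set read 6.25 and 5.77 in CDKO and 2.56 and 2.57 in WT cells and was called as well (3.45 ± 0.21). Slc7a11 was thus at background in WT cells and above it in CDKO cells on both probe sets. Nqo1 (chromosome 8), a quinone reductase, read 11.76 and 11.01 in CDKO and 8.48 and 8.76 in WT cells (difference 2.76 ± 0.30, adjusted p = 0.0086), and it also differed between the untreated lines (8.83 ± 0.13 in CDKO and 6.88 ± 0.27 in WT, SD; difference 1.95 ± 0.30, adjusted p = 0.0197).

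Members of glutathione synthesis and peroxide reduction had values in the same direction that did not pass the test on the probe set that stood for the gene. Srxn1, which reduces oxidised peroxiredoxins, read 12.04 and 12.52 in CDKO and 10.20 and 10.24 in WT cells (difference 2.06 ± 0.41, adjusted p = 0.0558). The glutamate-cysteine ligase subunit Gclm read 10.56 and 11.65 in CDKO and 9.58 and 9.38 in WT cells (1.63 ± 0.42, adjusted p = 0.114), and the subunit Gclc read 11.06 and 10.61 in CDKO and 9.32 and 9.28 in WT cells (1.54 ± 0.37, adjusted p = 0.0919). In each of them both CDKO arrays were above both WT arrays. Gclm and Gclc each also had another probe set that was called higher. In the alternative fits its difference lay between 2.28 and 2.49 for Gclm and between 2.21 and 2.62 for Gclc. The heme oxygenase gene Hmox1 (1.40 ± 0.72, adjusted p = 0.402) was high in both lines, at 13.41 and 13.88 in CDKO and 12.14 and 12.34 in WT cells. Thioredoxin reductase Txnrd1 (1.03), the pentose phosphate genes Taldo1 (0.86) and Pgd (0.70) and the exporter Abcc1 (1.10) were positive. Ephx1, an epoxide hydrolase, was the 1 member with a negative difference (-0.31 ± 0.17).

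Promoters of 3 of these genes are shown because they hold the core letters of the antioxidant response element, TGACNNNGC, or their reverse complement, GCNNNGTCA, on either strand. The first letters, TGAC, also begin the AP-1 motif TGACTCA. The core is common: it was found in 12.4% of 32851 RefSeq promoter windows running from 250 bases before to 50 after the gene start, and in at least 1 window of 14.0% of 27025 genes. Of the 26 listed genes, 21 had a window and 9 of them (42.9%) held the core. Among the 15 tested genes with a window it was 7. The core is in capitals below, 5′ to 3′ on the gene's strand. In Abcc4 (chr14:118706170-118706469, minus strand) the match began at position -25 from the start, in Srxn1 (chr2:152105274-152105573, plus strand) at 29 and in Gclm (chr3:122245307-122245606, plus strand) at -134. The windows of Nqo1 and Slc7a11 did not contain these letters, which says nothing about sequence outside them. A match describes letters and is not evidence of binding.
Abcc4: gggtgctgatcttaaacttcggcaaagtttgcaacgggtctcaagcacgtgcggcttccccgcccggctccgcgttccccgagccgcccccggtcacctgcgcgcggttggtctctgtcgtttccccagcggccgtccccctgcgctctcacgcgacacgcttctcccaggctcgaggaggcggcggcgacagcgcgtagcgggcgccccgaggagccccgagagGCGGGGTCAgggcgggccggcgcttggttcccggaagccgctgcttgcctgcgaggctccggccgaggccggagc
Srxn1: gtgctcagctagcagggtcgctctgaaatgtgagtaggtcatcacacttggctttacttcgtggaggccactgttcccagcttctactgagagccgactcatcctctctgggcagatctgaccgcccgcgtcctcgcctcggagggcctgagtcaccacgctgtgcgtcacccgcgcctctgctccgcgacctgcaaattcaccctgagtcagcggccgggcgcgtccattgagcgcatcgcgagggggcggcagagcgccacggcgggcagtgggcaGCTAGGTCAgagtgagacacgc
Gclm: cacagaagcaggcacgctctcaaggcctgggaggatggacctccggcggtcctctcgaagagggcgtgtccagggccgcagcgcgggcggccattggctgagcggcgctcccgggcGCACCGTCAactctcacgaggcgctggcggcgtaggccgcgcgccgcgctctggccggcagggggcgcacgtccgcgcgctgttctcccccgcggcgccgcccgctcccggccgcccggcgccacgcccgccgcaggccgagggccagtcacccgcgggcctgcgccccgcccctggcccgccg

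Other families that handle drugs and retinoids held 2 calls between them. Of 16 tested glutathione S-transferases none passed, and their median was -0.23. Gsto2 read 8.08 and 6.51 in CDKO and 9.17 and 9.20 in WT cells (-1.89 ± 0.48, adjusted p = 0.108). Of 5 tested genes of the aryl hydrocarbon receptor pathway none passed, and the receptor gene Ahr itself read 8.74 and 8.89 in CDKO and 7.50 and 7.47 in WT cells (1.33 ± 0.26, adjusted p = 0.0532). Among 13 aldo-keto reductases and retinol dehydrogenases, 2 passed, both higher, against 0.959% of all genes. Adh7, a retinol-active alcohol dehydrogenase, read 5.44 and 5.46 in CDKO and 2.95 and 2.76 in WT cells (2.60 ± 0.25, adjusted p = 0.0058), and Rdh10, which makes retinal for retinoic acid synthesis, read 8.14 and 8.46 in CDKO and 7.03 and 7.28 in WT cells (1.15 ± 0.21, adjusted p = 0.0434). The Rdh10 call held in 2 of the 10 fits that left out an array. Among 9 clade B serine protease inhibitors, 2 passed, both higher, against the same background: Serpinb1b read 7.43 and 6.04 in CDKO and 3.49 and 2.51 in WT cells, and Serpinb9g 7.89 and 6.03 in CDKO and 3.52 and 3.88 in WT cells. Members of this family are close copies of each other, and probe sets may read more than 1 of them.

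Chemokine genes, whose products attract leukocytes, held more called lower members than any other list. Of 28 listed, 18 were tested and 4 passed, all lower in CDKO cells, against 0.62% of all genes. Ccl6 (chromosome 11) read 5.50 and 3.76 in treated CDKO and 8.93 and 9.15 in treated WT cells (difference -4.41 ± 0.56, adjusted p = 0.0139). Ccl3 read 3.75 and 2.39 in CDKO and 6.20 and 6.19 in WT cells (-3.13 ± 0.42, adjusted p = 0.0172), and Ccl9 7.98 and 7.50 in CDKO and 9.94 and 10.02 in WT cells (-2.24 ± 0.27, adjusted p = 0.0109). In RefSeq's order of the genes with a single-symbol probe set, these 3 CC chemokine genes follow each other with at most 1 gene between neighbours. Cxcl5, a neutrophil attractant, read 5.43 and 6.49 in CDKO and 8.21 and 8.49 in WT cells (-2.40 ± 0.43, adjusted p = 0.0407). All 4 had CDKO arrays below the WT arrays, but the arrays did not overlap in any called gene. The Cxcl5 call held in 3 of the 10 fits that left out an array. Abundant chemokines that did not pass included Ccl2 at 12.61 and 13.21 in CDKO and 13.12 and 13.20 in WT cells (-0.25 ± 0.81) and Cxcl12 at 12.51 and 11.96 in CDKO and 12.36 and 12.32 in WT cells (-0.10 ± 0.35).

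Markers of macrophages and leukocytes were examined beside the chemokines, whose median was -0.55 on CDKO array 1, -0.34 on CDKO array 2 and 0.28 between the untreated lines. Of 19 such markers, 17 were tested and none passed. All 17 had a negative difference, and in 13 the CDKO arrays lay below the WT arrays, against 23.7% of all genes. The list median was -1.50 at 5 µM and -1.52 untreated. By array, the median level was 8.89 and 7.05 in treated CDKO and 9.16 and 9.12 in treated WT cells, so CDKO array 2 was the low one. Relative to WT, the median was -0.51 on CDKO array 1, where single markers lay between -1.57 (C1qa) and 1.02 (Ptprc), and -2.28 on CDKO array 2. Lysozyme transcripts were abundant in every treated array (Lyz2, 12.43 and 10.96 in CDKO, 13.23 and 13.24 in WT), and the complement gene C1qa (8.23 and 6.89 in CDKO, 9.85 and 9.74 in WT) and the mannose receptor gene Mrc1 (7.04 and 6.34 in CDKO, 8.50 and 8.60 in WT) had differences of -2.24 ± 0.58 and -1.86 ± 0.37. The leukocyte gene Ptprc read 6.08 and 3.04 in CDKO and 5.12 and 5.00 in WT cells. Itgam and Aif1 were under 4 in both lines. In bulk RNA, fewer cells of a type and less RNA per cell cannot be told apart, and the part of these markers in the chemokine differences was not tested.

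Interferon-stimulated genes act against viruses, and 18 of 32 listed were tested. None passed, with 2 positive and 16 negative differences, 14 of them with CDKO arrays below WT arrays, against 23.7% of all genes. Their median was -0.77 at 5 µM and 1.09 in the untreated lines. Usp18, which removes the modifier ISG15, read 5.87 and 6.14 in treated CDKO and 8.42 and 8.48 in treated WT cells (-2.45 ± 0.96, adjusted p = 0.262), but averaged 7.25 in untreated CDKO and 2.93 in untreated WT cells (4.31 ± 0.96, adjusted p = 0.0531). The change of direction did not pass the test (-6.76, adjusted p = 0.2). Usp18 read 6.23 and 2.66 in CDKO cells at 1 µM (SD 2.53), against SDs of 0.19 in treated CDKO and 0.04 in treated WT cells. That spread enters the SE of every group. Irf9, a subunit of the interferon-activated factor, read 7.76 and 8.05 in CDKO and 9.44 and 9.42 in WT cells on the drug (-1.52 ± 0.40, adjusted p = 0.119).

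**Figure D3:**
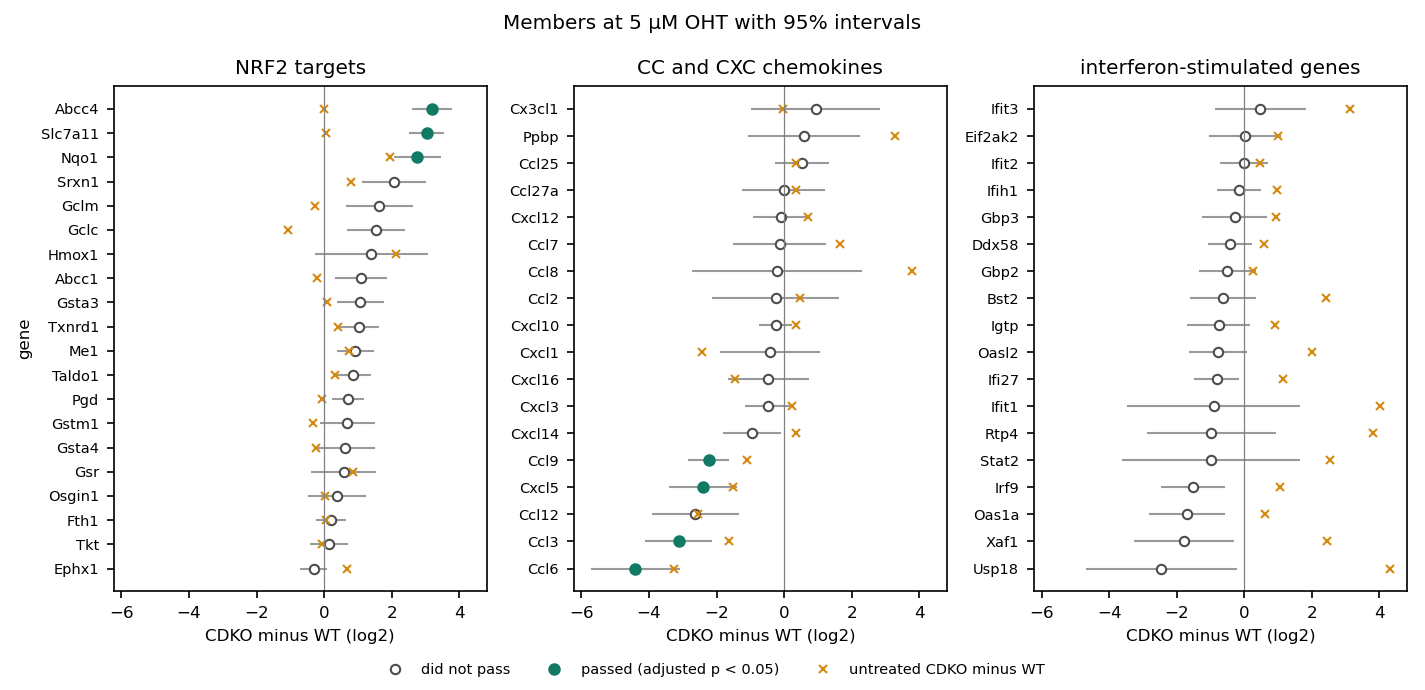
Difference between CDKO and WT cells at 5 µM OHT (circles, log2, with 95% intervals of the model) for the tested NRF2 targets, chemokines and interferon-stimulated genes, with the untreated difference as crosses; filled circles passed the test. The 3 filled NRF2 members lie to the right and the 4 filled chemokines to the left, while the interferon-stimulated genes have untreated values to the right of their values on the drug.

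Within the microRNA pathway, 14 of 17 genes were tested and 1 passed, higher in CDKO cells, against 0.959% of all genes. Tnrc6a (chromosome 7), the GW182 scaffold that links Argonaute to the deadenylases, read 11.28 and 11.31 in treated CDKO and 9.71 and 9.83 in treated WT cells (1.52 ± 0.20, adjusted p = 0.0166). It averaged 11.29 in untreated CDKO and 11.39 in untreated WT cells, so the treated WT level was the one that stood apart. The call was lost without CDKO 5 µM array 1 (adjusted p = 0.0568) and without any of the 4 WT arrays (adjusted p between 0.0577 and 0.2). Ago3, an Argonaute, read 7.25 and 7.72 in CDKO and 5.44 and 5.00 in WT cells (2.26 ± 0.47, adjusted p = 0.0641). Its other tested probe set differed by -0.01. The 4 tested probe sets of Ago2 differed by between -0.83 and 1.28, and none was called. The scaffold Tnrc6c, related to Tnrc6a, read 6.84 and 7.70 in CDKO and 6.03 and 5.90 in WT cells (1.31 ± 0.42, adjusted p = 0.186). The list median was 0.30.

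Known targets of the microRNAs shown above had no called members. Of 24 let-7 targets, 8 were under 4 in both lines, Lin28b and Trim71 among them, and 12 were tested: 9 were positive and 3 negative, with a median of 0.37 (0.14 on CDKO array 1 and 0.69 on CDKO array 2). The oncofetal growth regulator Hmga2 read 13.71 and 13.05 in CDKO and 13.53 and 13.46 in WT cells (-0.12 ± 0.31). Igf2bp1, an mRNA-binding protein gene, read 7.66 and 9.33 in CDKO and 7.46 and 7.49 in WT cells on its strongest probe set (1.02 ± 0.69, adjusted p = 0.54), while 1 of its other 3 tested probe sets was called higher (2.48 ± 0.41). Of 19 tested targets of miR-21, miR-29 and other fibroblast microRNAs, 9 were positive and 10 negative, with a median of -0.03. The receptor kinase gene Met read 7.73 and 7.81 in CDKO and 6.58 and 6.31 in WT cells (1.32 ± 0.33, adjusted p = 0.105).

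The growth-control lists held few calls. Of 24 p53 targets, 1 was called higher, against 0.959% of all genes, and the list median was 0.45. It was Apaf1, the apoptosome scaffold, at 9.61 and 9.71 in CDKO and 8.60 and 8.44 in WT cells (1.14 ± 0.18, adjusted p = 0.0292). That call was lost in the fits without any 1 of the 4 treated arrays or either untreated WT array (adjusted p up to 0.277). Cdkn1a, the p53-driven cell cycle inhibitor, was high and close in both lines, at 13.07 and 13.50 in CDKO and 13.09 and 13.08 in WT cells. Cdkn2a was the only called gene among 18 inhibitors, pocket proteins and G1 cyclins, against 0.959% of all genes called higher. None of 25 mitosis genes passed at 5 µM, where their median was -0.36 against -1.78 in the untreated lines. Mki67, a proliferation marker, read 7.54 and 7.61 in CDKO and 8.18 and 8.15 in WT cells on the drug (-0.59 ± 0.82), but averaged 8.79 in untreated CDKO and 11.77 in untreated WT cells (-2.98 ± 0.82, adjusted p = 0.0911). The 27 replication genes had a median of -0.03 at 5 µM. None of 12 BCL2 family genes passed on the probe set that stood for the gene. Bak1 differed by -1.11 on that probe set and by 1.81 on its other one, which was called.

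The extracellular matrix and insulin-like growth factor lists were split between the CDKO arrays. The 32 extracellular matrix genes had no call and a median of -0.72 on CDKO array 1 and 0.50 on CDKO array 2. The 15 genes of the insulin-like growth factor axis had -0.19 and 0.98, with Igfbp5 at 8.24 and 10.81 in CDKO and 6.95 and 7.07 in WT cells (2.52 ± 0.76, adjusted p = 0.159). The TGF-beta and BMP genes had 20 of 25 positive differences and a median of 0.48 (0.43 on CDKO array 1 and 0.81 on CDKO array 2), none of them called. Of 21 hypoxia and glycolysis genes, 17 were negative (median -0.49) and none was called: the lactate exporter gene Slc16a3 read 6.16 and 9.52 in CDKO and 10.51 and 10.61 in WT cells (-2.72 ± 1.38). In all 5 tested adipocyte markers both CDKO arrays lay below both WT arrays, against 23.7% of all genes, without passing, for example Fabp4 at 9.46 and 9.29 in CDKO and 11.09 and 11.11 in WT cells (-1.72 ± 0.34, adjusted p = 0.0552). The regulator Pparg was among them (-1.09 ± 0.25, adjusted p = 0.0845). S100b, a glial calcium-binding protein gene, was the 1 called gene of 8 tested neural and glial markers, against 0.62% of all genes called lower. It read 2.91 and 3.83 in CDKO and 6.16 and 6.96 in WT cells.

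**Figure D4:**
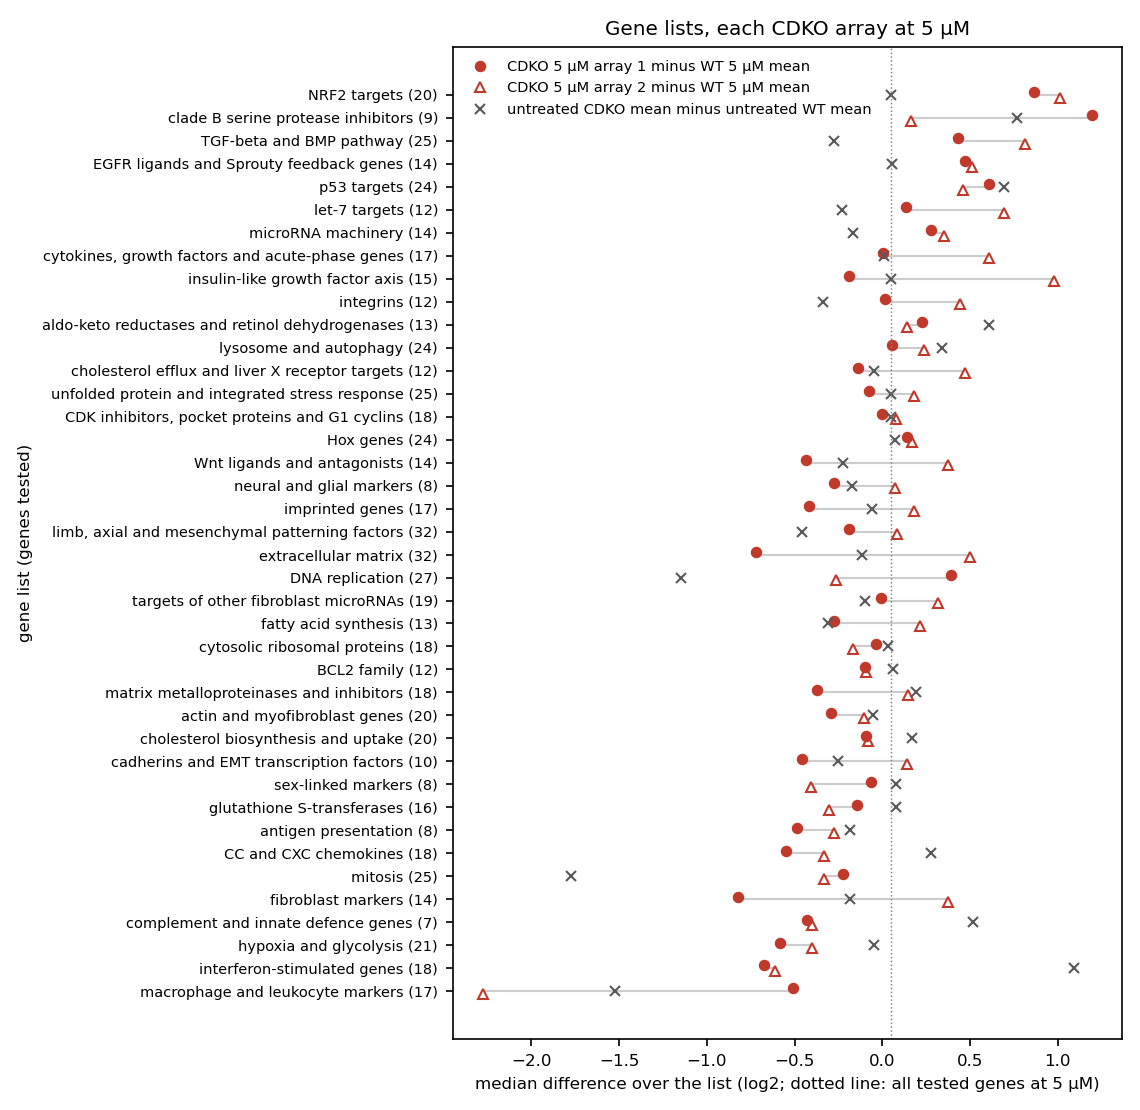
Median difference from the treated WT mean (log2) over each list with at least 7 tested genes, for CDKO 5 µM array 1 (filled circle) and array 2 (open triangle), with the untreated line difference as a cross. The NRF2 targets lie near 1 on both CDKO arrays, while the extracellular matrix and fibroblast lists lie on opposite sides of 0 and the macrophage list lies at -0.51 and -2.28.

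Probe sets of the same gene did not always agree. H2-D1 (chromosome 17), a classical class I histocompatibility gene whose sequence varies among mouse strains, had 8 tested probe sets. The brightest read 10.33 and 10.84 in CDKO and 12.07 and 12.06 in WT cells (-1.48 ± 0.54, adjusted p = 0.232). Another read 2.81 and 2.79 in CDKO and 8.72 and 8.67 in WT cells, a difference of -5.89 ± 0.17 (adjusted p = 2.4e-05), and 2 more differed by -5.88 and -4.83. All 3 were at background on both CDKO arrays and called, and in the untreated lines they differed by -5.14, -5.20 and -4.33. The first of these and the one at -5.88 were the 2 probe sets that passed every alternative. The labels name no strain for either line, and the part of strain in this pattern was not tested. Antigen presentation genes otherwise held no call over 8 tested.

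Pik3r1 had 4 tested probe sets, of which 1 was called higher (2.16) and 2 lower (-2.42 ± 0.41 and -2.27 ± 0.42), so no direction can be given for the gene as a whole. The call at -2.27 held in none of the 10 fits that left out an array, and that at -2.42 in 4 of them. Xaf1, a proapoptotic interferon-stimulated gene, differed by -1.79 ± 0.63 on its brightest probe set (7.20 and 7.83 in CDKO, 9.18 and 9.44 in WT) and by 3.13 ± 0.38 on another, which was called (5.54 and 6.42 in CDKO, 2.91 and 2.79 in WT). For Tnrc6a, 2 of 8 tested probe sets were called, both higher, and 7 of 8 had a positive difference. The imprinted noncoding gene Meg3 had 1 of 9 tested probe sets called, lower by -2.17 ± 0.30, while its brightest differed by -1.92 ± 0.68 (adjusted p = 0.218).

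**Figure D5:**
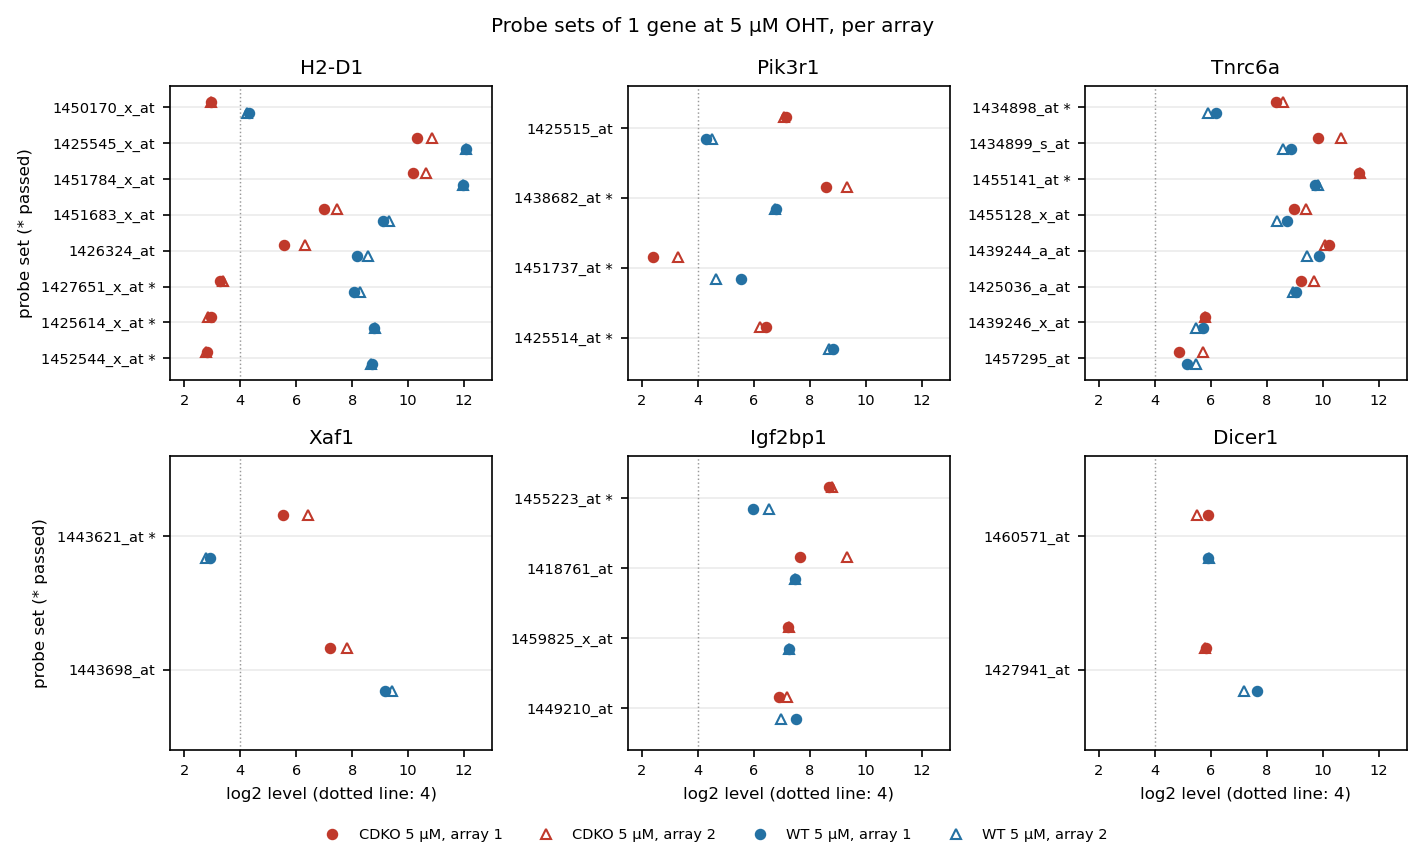
Log2 level on each treated array (red CDKO, blue WT) for all tested probe sets of 6 genes, where a star marks a probe set that passed the test. The 3 starred H2-D1 probe sets read under 4 in CDKO and above 8 in WT cells, and the starred Pik3r1 probe sets lie on both sides.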

How the data were processed

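RNA of 10 cell samples was measured on Affymetrix arrays, 1 array each. The authors deposited log2 values, and the tool named for them per the submitters' processing notes is GCRMA, which corrects background by probe base composition, normalizes and summarises each probe set. Its version was not given in the sources used. GCRMA pulls dim probe sets to a narrow floor, so differences of dim genes are compressed. The table held 45101 rows, 64 of them controls, with values between 1.09 and 16.0 and array medians between 3.03 and 3.16. Of the other 45037 probe sets, 34945 had 1 gene symbol in GEO's platform annotation, 932 several and 9160 none, and the last were not named.

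Groups followed the sample titles. Differences were tested with limma 3.58.1 in R 4.3.3 (lmFit and eBayes, 5 residual degrees of freedom) on the means of all 5 groups, so the spread was shared, with Benjamini-Hochberg adjustment over 19639 probe sets and a threshold of 0.05. Every adjusted p in the text is from limma, and the precision is limited by 2 arrays a group. Where a gene had several probe sets, the brightest on average over all 10 arrays stood for it. Named were the 12 genes furthest in each direction, the 8 furthest with both means at 6 or above, the 5 furthest also called untreated, the 5 furthest that passed the test of the response, up to 4 called members of each of 50 lists (otherwise the largest 1 or 2), and Dicer1, Esr1 and Cdkn2a, passing over clone and model names. Other list members, markers and probe sets were named after their values were seen. Members and lists were chosen with earlier results of these data known. The fit was tested on simulated data. Alternatives covered the filter, scaling, prior, weights, groups fitted, probe set choice, a minimum change, blocks and each array left out. Python 3.11.15 with pandas 2.3.3 and matplotlib 3.10.9 made the tables and plots.

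Replicate numbers are shared by the groups, but deviations of same-numbered arrays correlated at 0.06 between treated CDKO and treated WT cells and between -0.46 and 0.44 over all pairs of groups, so the numbers were not taken to pair the samples.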

Additional observations from a re-analysis of the deposited data

Results flagged for a closer look

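For 7 probe sets the line difference at 5 µM OHT was unlike that in untreated cells by the interaction term of the model, and each had an adjusted p of 0.0464. The values given are the treated minus the untreated line difference, in log2 units, and they rest in part on the untreated WT arrays, whose 18S control was high. Every one of these calls was lost in at least 1 fit that left out an array, since 0 probe sets passed in 7 of those 10 fits.

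Pdgfd, a platelet-derived growth factor ligand, had a value of -3.6951 on 1 probe set. It read 7.26 and 7.70 in treated CDKO and 7.11 and 7.58 in treated WT cells, and 7.28 and 7.25 in untreated CDKO and 3.43 and 3.44 in untreated WT cells. On this probe set untreated WT was therefore the group that stood apart. The brighter Pdgfd probe set read 7.57 and 7.73 in untreated WT and 7.58 and 8.13 in treated WT cells. Its value was -0.254 (limma, adjusted p = 0.869). Hal had a value of -2.9849, with treated WT cells above 5 and the other 3 of these 4 groups near background. Of the 3 probe sets without a single gene symbol, 1 had -2.7117 (2.28 and 2.25 in treated CDKO, 5.13 and 4.76 in treated WT), 1 had -2.4803 (2.79 and 2.65 in treated CDKO, 5.27 and 5.20 in treated WT) and 1 had 2.8584 (4.16 and 4.07 in treated CDKO, 4.88 and 4.57 in treated WT, with untreated WT at 7.91 on average).

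Slc7a11 had 3.374 on the probe set that did not stand for the gene, where treated CDKO was the only group of the 4 above 4. Map7d2, which encodes a microtubule-associated protein, had 3.5952 on 1 of 2 probe sets, where it averaged 6.34 ± 0.23 in treated CDKO and 2.71 ± 0.41 in treated WT cells (SD), and its brighter probe set differed by 1.08 at 5 µM.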

How the results depend on the processing

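Counts of called probe sets are given for the lines at 5 µM, the untreated lines and the response, which were 391, 796 and 7. A filter over any of the 5 groups gave 372, 1360 and 72, no filter 398, 1034 and 194, and a mean of 6 gave 267, 557 and 3. A trended robust prior gave 320, 763 and 0 (2211 at unadjusted p under 0.05), centring 417, 849 and 5, and quantile normalization 387, 887 and 10. Only the groups compared gave 2, 0 (5256 unadjusted) and 16. Array weights gave 393, 1479 and 0 (2788 unadjusted), weights per line 268, 915 and 0 (2407), 1 probe set per gene 168, 282 and 7, and a minimum change of 1 gave 33, 34 and 0 (293). The replicate block gave 207, 509 and 0 (1991), although the numbers did not pair the samples, and the spike-in class as a block 1051, 1752 and 0 (3194). Leaving out 1 array gave 29 to 640, 32 to 2674 and 0 to 16. The cause of these shifts was not tested.

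Of 85 named results called at 5 µM, none changed sign in the 23 settings, 14 passed every fit without an array and 2, both H2-D1 probe sets, passed every setting. Over 157 named results, 4 values reversed: the Pdgfd probe set had -0.0074 under quantile normalization and between -0.1041 and 0.3722 without 1 array, and Dcn between -2.6348 and 0.6011. Neither was called at 5 µM. For the called results the unchanged sign says little. The filters, the prior, the minimum change and the fits without an array of another group leave the difference as it was. Where the treated CDKO and WT arrays do not overlap, leaving out a treated array cannot reverse it either. Groups of 2 arrays and GCRMA's floor limit what can be seen of dim genes. The floor also narrows the spread between the arrays of a dim group, which lowers the SE. The H2-D1 probe set at -5.89 had an SD of 0.01 in treated CDKO cells. Hal, Angptl7 and Slc7a11, which also passed often, were likewise at background in 1 treated line. The part of the floor in these calls was not tested.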

Other observations

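Some called genes stood close together in RefSeq's gene order, and these were chosen after their values were seen. Only genes with a probe set of a single symbol were counted in that order. More genes may therefore lie between them on the chromosome. Among neighbouring called genes with at most 4 genes between them there were 25 pairs, 16 with the same direction and 9 with opposite directions. How many such pairs 163 called genes, 99 higher and 64 lower, would give by gene order alone was not computed. The counts therefore do not measure clustering. On chromosome 10, Esr1 (5.85) and Vip (-7.37) had 2 genes between them and opposite directions. On chromosome 4, the zinc finger genes Zfp991 (4.78) and Zfp979 (-4.44) had 1 gene between them and were also opposite. The other tested probe set of Zfp991 differed by -0.45. The activin receptor-like genes Acvrl1 (-2.62) and Acvr1b (1.18) on chromosome 15 were adjacent: Acvrl1 read 4.18 and 4.26 in treated CDKO and 6.99 and 6.69 in treated WT cells, and Acvr1b 7.66 and 8.03 in treated CDKO and 6.68 and 6.65 in treated WT cells. On chromosome 1, the interferon-inducible genes Ifi204 (-2.21) and Ifi202b (-1.81) were both lower, and on chromosome 7 Hddc3 (-3.65) and the tyrosine kinase gene Fes (-1.85).

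Mex3b and Mex3a, genes of RNA-binding ubiquitin ligases, were among the 99 genes called higher in treated CDKO cells (0.959% of all genes). The rest of the Mex3 family is not described here. Mex3b read 7.32 and 7.55 in treated CDKO and 4.82 and 3.89 in treated WT cells (3.07, adjusted p = 0.0181), and Mex3a 7.07 and 7.63 in treated CDKO and 5.36 and 5.36 in treated WT cells (1.99, adjusted p = 0.0275). The iron exporter gene Slc40a1 read 5.60 and 5.78 in treated CDKO and 2.51 and 2.55 in treated WT cells (3.16, adjusted p = 0.0135), against averages of 6.33 in untreated CDKO and 6.25 in untreated WT cells. In Mex3b and Slc40a1 the treated WT arrays were the low ones of these 4 groups. These genes were likewise chosen after their values were seen.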
